A study of Mus musculus with 28 samples.

Results

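The Toll-like receptors (TLRs) are the germline-encoded sensors with which microglia detect microbial products. The family was followed here as the 10 mouse genes Tlr1, Tlr2, Tlr3, Tlr4, Tlr5, Tlr6, Tlr7, Tlr8, Tlr9 and Tlr13. These were chosen by symbol from the 40021 genes of the expression table, and all 10 were found. Expression was measured by mRNA-Seq in microglia sorted from 28 single retinas during endotoxin-induced uveitis (EIU), in which lipopolysaccharide (LPS, 10 ng) is injected into the vitreous. All retinas came from male heterozygous Cx3cr1CreER:R26-tdTomato mice on a C57BL/6 background, in which tamoxifen given at 4–5 weeks of age switches on the red fluorescent protein tdTomato in cells that express the fractalkine receptor gene Cx3cr1. All groups, naïve included, carried this label and had received 3 days of topical tamoxifen. LPS was injected 4 weeks after tamoxifen. The 2-week retinas were therefore taken longer after tamoxifen, and from older mice, than those at 4 h and 18 h. The time from tamoxifen to collection of the sequenced naïve retinas is not stated. The 28 were 10 retinas that were not injected (naïve), and 6, 5 and 7 retinas taken 4 h, 18 h and 2 weeks after LPS. The retinas belonged to 2 experiments, with 6 and 4 naïve, 3 and 3 at 4 h, 4 and 1 at 18 h, and 4 and 3 at 2 weeks in experiments 1 and 2. About 600 live tdTomato-high cells were sorted from each retina, so Cx3cr1-expressing cells other than microglia that had recombined would also be collected. For this tamoxifen regime the paper reports, by flow cytometry at peak EIU, high specificity of tdTomato for microglia.

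TLRs carry a leucine-rich ectodomain that binds the microbial ligand and a cytosolic TIR domain that recruits the adaptors MyD88 or TRIF, and through them NF-kappa B and interferon regulatory factors. TLR4, together with MD-2 and CD14, is the receptor for LPS. TLR2 pairs with TLR1 or TLR6 at the cell surface to detect bacterial lipopeptides, and TLR5 detects flagellin. TLR3, TLR7, TLR8, TLR9 and TLR13 act in endosomes and detect nucleic acids. TLR3 recognises double-stranded RNA, TLR7 and TLR8 single-stranded RNA, TLR9 unmethylated CpG DNA and TLR13 bacterial ribosomal RNA. In the central nervous system, microglia are the main cells known to express most of the family.

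The sequence before the transcription start is shown for 3 members, Tlr2, Tlr6 and Tlr3. Of the members searched, only these held a match there to the kappa B or interferon response motif described below. Tlr2 and Tlr6 rose at 4 h, and Tlr3 did not pass the test in either direction. Each run covers 250 bases before the start to 20 bases after it, on the strand of the gene, from RefSeq on GRCm38.p6. They are chr3:83841589-83841858 for Tlr2, chr5:64959147-64959416 for Tlr6 and chr8:45410361-45410630 for Tlr3, all on the minus strand. Capitals mark matches to the kappa B motif of NF-kappa B in Tlr2 and Tlr3, and to the interferon response motif (GAAA, then any 2 bases, then GAAA), read on the other strand, in Tlr6.
Tlr2: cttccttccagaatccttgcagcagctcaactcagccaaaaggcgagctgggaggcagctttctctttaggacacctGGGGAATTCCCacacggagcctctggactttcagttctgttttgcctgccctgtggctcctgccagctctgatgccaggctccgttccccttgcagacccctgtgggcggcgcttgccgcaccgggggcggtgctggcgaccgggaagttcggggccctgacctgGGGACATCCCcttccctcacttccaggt
Tlr6: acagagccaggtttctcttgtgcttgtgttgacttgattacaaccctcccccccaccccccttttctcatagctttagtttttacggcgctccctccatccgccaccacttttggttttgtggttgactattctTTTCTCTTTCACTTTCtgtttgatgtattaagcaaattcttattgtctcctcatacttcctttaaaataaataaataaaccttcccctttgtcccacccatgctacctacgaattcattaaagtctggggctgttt
Tlr3: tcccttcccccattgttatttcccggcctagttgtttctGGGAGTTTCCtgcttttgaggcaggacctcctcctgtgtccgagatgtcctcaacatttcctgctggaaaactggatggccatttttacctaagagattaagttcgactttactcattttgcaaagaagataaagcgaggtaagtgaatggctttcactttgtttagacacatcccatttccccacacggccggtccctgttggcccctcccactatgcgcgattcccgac
The Tlr2 window held 3 matches to the kappa B motif, of which the pair starting 173 and 172 bases before the start overlap and the other starts 8 bases before it. The Tlr3 window held 1, starting 211 bases before the start. The Tlr6 window held 2 overlapping interferon response matches, starting 116 and 110 bases before the start, and the window of the other annotated Tlr6 start held no match to any of the 4 motifs searched. Among 32851 mouse promoter windows of 300 bases, 8.46% held a kappa B match and 3.44% an interferon response match, both strands being searched. The other motifs were GAGGAA, bound by the myeloid factor PU.1, which 28.3% of all windows held, and TGANTCA, bound by AP-1, which 7.81% held. Of the 8 members in the promoter table, GAGGAA was found in windows of Tlr1, Tlr8, Tlr9 and Tlr13 and TGANTCA in that of Tlr9, and the Tlr5 window held no match. Tlr4 and Tlr7 were not in that table. Whether any of these matches bears on the level of its gene was not tested.

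Levels are given in RPKM, read numbers divided by the length of the gene's transcripts and by the size of the library, which allows genes of different length to be set beside each other. The 28 libraries held 7510000 to 19700000 alignments and 6552 to 11825 genes at an RPKM of at least 1. Fewer than 8000 such genes were found in naïve-3, naïve-4, EIU18h-4 and EIU2w-1, where the number is the replicate. Some of the results that rest on these retinas are also given without them. The 12 microglial marker genes (P2ry12, Cx3cr1, Tmem119 and others) were present in all 4 groups, with summed RPKM of 8461–14507 in naïve retinas. At 4 h the range was 2206–7362, at 18 h 4028–6662, and at 2 weeks 9066–14601. The 10 neutrophil markers summed to at most 0.264 RPKM in naïve and 4 h retinas and reached 17.1 at 18 h, where Ltf, Ngp and Mpo were listed at 0. The 6 lymphocyte markers summed to at most 0.237 in naïve and 4 h retinas and to 6.59–86.4 at 18 h, with Cd79a listed at 0 there. Rod photoreceptor markers were found in every group (naïve 200–3810, 4 h 318–3116, 18 h 140–1338). The part of these other cells in the TLR values was not tested. In sorted populations, fewer expressing cells and less RNA per cell cannot be told apart.

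In naïve microglia the endosomal RNA receptors Tlr7 and Tlr13 had the highest levels of the family. Tlr7 had a median of 43.8 RPKM (22.5–67.2, n = 10) and Tlr13 a median of 36.3 RPKM (21.1–43.0). Tlr2 followed with a median of 17.9 RPKM, and Tlr3 (9.70), Tlr4 (8.94), Tlr1 (8.71) and Tlr6 (5.18) lay below it. Tlr8, Tlr9 and Tlr5 had medians of 0.175, 0.173 and 0.135 RPKM. The ranges of all neighbours in this order overlapped, and only Tlr7 over Tlr13 (9 of 10 retinas) and Tlr6 over Tlr8 (10 of 10) held in at least 9 naïve retinas.

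The order changed after LPS. At 4 h Tlr2 stood first with a median of 515 RPKM, and its lowest retina lay above the highest Tlr7 value. Tlr7 (38.7), Tlr13 (36.3) and Tlr1 (29.4) came next with overlapping ranges, then Tlr6 (16.8), which lay wholly above Tlr3 (3.61) and Tlr4 (1.05). At 18 h Tlr2 (86.1) and Tlr1 (46.0) led, ahead of Tlr7 (31.8) and Tlr13 (24.5), and the range of each overlapped that of the next. Tlr13 lay wholly above Tlr4 (9.75) at that time. At 2 weeks Tlr13 (41.1), Tlr2 (30.8) and Tlr7 (29.5) had the highest medians, again with overlap.

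**Figure D1:**
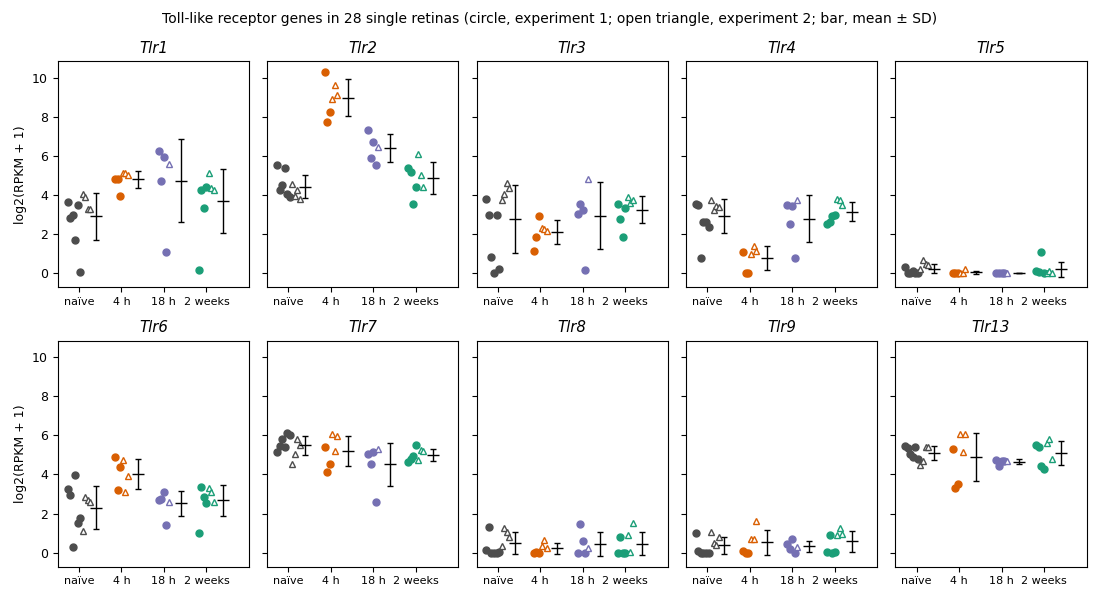
Level of each TLR gene as log2(RPKM + 1) in each retina, by group, with experiment 1 as filled circles, experiment 2 as open triangles and the mean ± SD as a bar. All 6 Tlr2 values at 4 h lie above every naïve value, Tlr4 lies low in all 6 retinas at 4 h, and Tlr5, Tlr8 and Tlr9 reach at most 2.10 RPKM in any group.

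Of the 10 members, 8 passed the filter on low values (an RPKM of 1 or more in 5 or more retinas), as did 13164 genes in all. Tlr5 reached that level in 1 retina, Tlr9 in 3 and Tlr8, just inside the filter, in 5. Changes are differences in mean log2(RPKM + 1) from limma, which understate the change of low genes, and a gene was called where its adjusted p did not exceed 0.05 and its level differed at least 2-fold. At 4 h after LPS 3 of the 8 tested members were called against naïve, Tlr2 and Tlr6 higher and Tlr4 lower, where 8.08% of all tested genes were called (3.68% higher and 4.39% lower). At 18 h 1 member, Tlr2, was called, and higher (4.69% of all genes, 2.84% higher and 1.85% lower). At 2 weeks 0 of 8 were called, none had an unadjusted p under 0.05, and 1 of 13164 genes was called (0.0076%). Between 18 h and 4 h 2 members were called, Tlr2 lower and Tlr4 higher at 18 h (5.42% of all genes, 2.51% lower and 2.92% higher). The median log2 difference over all tested genes was -0.11 at 4 h, -0.08 at 18 h and 0.07 at 2 weeks.

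**Figure D2:**
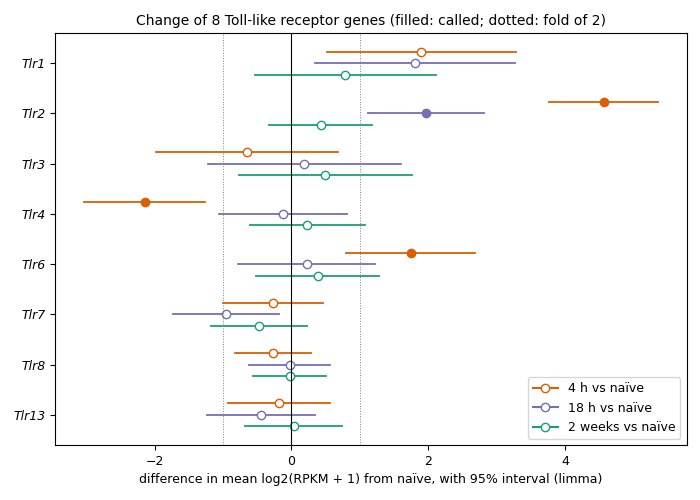
Difference in mean log2(RPKM + 1) from naïve for the 8 tested members, with 95% intervals from limma. Filled points were called, and dotted lines mark a fold of 2. Tlr2 lies at 4.56 at 4 h and 1.97 at 18 h, Tlr6 at 1.74 and Tlr4 at -2.15 at 4 h, and every interval at 2 weeks includes 0.

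Tlr2, the lipopeptide receptor, showed the largest rise of the 8 tested members. The naïve retinas ranged from 13.04 to 45.7 RPKM around a median of 17.9. At 4 h the 6 retinas stood at 1263, 208, 305, 475, 773 and 554 RPKM. All 6 lay above the highest naïve retina, a separation seen in that direction for 1.65% of tested genes. The mean went from 22.3 ± 11.4 (SD, n = 10) to 596 ± 381 RPKM (n = 6), and the log2 difference was 4.56 ± 0.39 (SE, limma adjusted p = 3.98e-10), a 23.6-fold rise. The rise was called in experiment 1 alone (4.15, adjusted p = 0.000255) and in experiment 2 alone (5.07).

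By 18 h Tlr2 had partly fallen back. The 5 retinas stood at 160, 57.8, 105, 45.7 and 86.1 RPKM, and 4 of them exceeded every naïve retina. Tlr2 was thus not among the 2.05% of tested genes that lay wholly above naïve at 18 h. The share of tested genes with a partial separation was not computed, here or for the other members. The fourth retina, EIU18h-4, was one of those with few genes and was just under the highest naïve value of 45.7. Against naïve the log2 difference was 1.97 ± 0.41 (limma adjusted p = 0.00317), and against 4 h it was -2.59 ± 0.46 (limma adjusted p = 0.000313), with all 5 values below the lowest at 4 h (2.79% of genes lay wholly below). Within experiment 1 the same differences were 1.76 and -2.39 with adjusted p of 0.136 and 0.0915, so neither passed there. Experiment 2 had a single 18 h retina and gave 2.31 against naïve with an adjusted p of 0.0621. The neutrophil markers summed to 1.08, 12.7, 17.1, 0 and 0.885 RPKM in the 5 retinas at 18 h, in the same order, and the 8 monocyte markers to 17.3, 7.40, 8.53, 0.228 and 50.03 RPKM. The monocyte markers summed to 0.149–29.1 RPKM in naïve retinas, 0.236–18.1 RPKM at 4 h and 1.98–28.4 RPKM at 2 weeks. The part of either marker set in the Tlr2 values was not tested. At 2 weeks Tlr2 ranged from 10.6 to 66.1 RPKM (31.7 ± 18.1, n = 7), with a log2 difference from naïve of 0.42 and a 95% interval of -0.33 to 1.18.

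Tlr4, which encodes the LPS receptor itself, moved the other way. Naïve retinas ranged from 0.697 to 12.4 RPKM around a median of 8.94. At 4 h the 6 retinas stood at 1.12, 0, 0.0160, 0.980, 1.63 and 1.21 RPKM. All 6 lay below the other 9 naïve retinas, whose lowest value was 4.19 RPKM, but only 2 lay below naïve-3 (0.697 RPKM). Tlr4 was thus not among the 1.42% of tested genes that lay wholly below naïve. The mean was 7.60 ± 3.62 RPKM in naïve and 0.826 ± 0.670 RPKM at 4 h, and the log2 difference was -2.15 ± 0.43 (limma adjusted p = 0.000966). With the merged exons of Tlr4 and the alignments of each library, 1 read of this gene is worth about 0.00914 to 0.0240 RPKM, so the lowest 2 retinas held at most a few reads. The fall was -2.19 in experiment 1 (adjusted p = 0.0911) and -2.28 in experiment 2. The summed microglial markers were also lower at 4 h (highest 7362 RPKM, against a naïve lowest of 8461 RPKM). They were as low at 18 h (highest 6662 RPKM), and their part in the Tlr4 values was not tested.

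At 18 h 4 of 5 Tlr4 values lay within the naïve range, but EIU18h-4 (0.729 RPKM) did so only through naïve-3 (0.697 RPKM). The other 9 naïve retinas held at least 4.19 RPKM, and EIU18h-4 lay within the range of the 4 h retinas (0–1.63 RPKM). The values were 10.2, 4.63, 9.75, 0.729 and 12.6 RPKM, the lowest being EIU18h-4 and the highest just above the naïve maximum. Of the 5, 4 lay above every 4 h value, so Tlr4 was not among the 4.84% of tested genes that lay wholly above their 4 h values. The log2 difference was -0.13 from naïve, with a 95% interval of -1.06 to 0.81, and 2.02 ± 0.51 from 4 h (limma adjusted p = 0.0135). The difference between 18 h and 4 h no longer passed without EIU18h-1 (1.85, adjusted p = 0.0502), without EIU18h-5 (1.78, adjusted p = 0.0547) or within experiment 1 alone (2.18, adjusted p = 0.192). At 2 weeks Tlr4 lay between 4.80 and 12.6 RPKM, a log2 difference from naïve of 0.23 with an interval of -0.61 to 1.07.

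**Figure D3:**
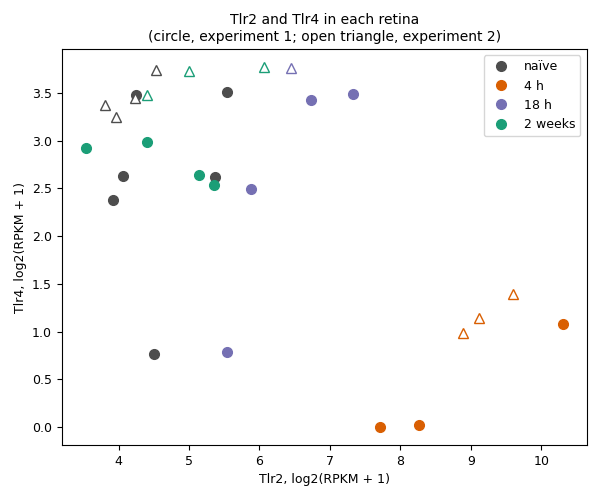
Tlr4 against Tlr2 in each of the 28 retinas, both as log2(RPKM + 1), coloured by group, with experiment 1 as filled circles and experiment 2 as open triangles. The 6 retinas at 4 h form the lower right group, with Tlr2 of at least 208 RPKM and Tlr4 of at most 1.63 RPKM, and 5 of the 7 retinas at 2 weeks lie within the naïve range of Tlr2, with 1 above and 1 below it.

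Tlr6 and Tlr1 encode the partners of TLR2. Tlr6 had a naïve median of 5.18 RPKM (0.221–14.5). The ends of that range were naïve-3 and naïve-4, both with few genes, and without them it was 1.18–8.55 RPKM. At 4 h it stood at 28.4, 8.13, 19.7, 25.7, 7.73 and 14.0 RPKM. All 6 lay above the naïve median and 3 above every naïve retina. The log2 difference was 1.74 ± 0.46 (limma adjusted p = 0.0124), and it was similar in size in both experiments (1.86 and 1.62) but did not pass in experiment 1 alone (adjusted p = 0.256). At 18 h Tlr6 was 1.64–7.73 RPKM, and all 5 values lay below the lowest at 4 h (2.79% of tested genes lay wholly below). The highest at 18 h (7.726 RPKM) and the lowest at 4 h (7.729 RPKM) nearly met. The difference between 18 h and 4 h was -1.52 and did not pass (adjusted p = 0.106), although it did with only those 2 groups in the fit (adjusted p = 0.0463) and with quantile normalisation (0.0385), and the difference from naïve was 0.22 with an interval of -0.78 to 1.22.

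Tlr1 had higher means than naïve at all times after LPS, but was not called at any. The naïve median was 8.71 RPKM (0.0316–15.3). At 4 h it stood at 27.5, 27.0, 14.5, 33.4, 33.6 and 31.2 RPKM, 5 of 6 above every naïve retina. At 18 h it stood at 76.1, 25.6, 60.9, 1.09 and 46.0 RPKM, 4 of 5 above every naïve retina, and EIU18h-4 was the low one. The log2 differences were 1.90 ± 0.68 (limma adjusted p = 0.0818) and 1.81 ± 0.72 (adjusted p = 0.162). Without EIU18h-4 alone both were called, at 1.90 (adjusted p = 0.0291) and 2.72 (adjusted p = 0.0101). At 4 h Tlr1 was also called without EIU2w-1 (adjusted p = 0.0328), in which it stood at 0.121 RPKM, with only naïve and 4 h retinas in the fit (0.0195), and with quantile normalisation (0.0117). Without the 4 retinas of fewer than 8000 genes, an alternative chosen after the data were seen, the differences were 1.75 (adjusted p = 0.0072) and 2.58 (adjusted p = 0.00158). At 2 weeks the range was 0.121 to 33.3 RPKM, with 5 of 7 retinas above every naïve one, and the log2 difference was 0.79 with an interval of -0.53 to 2.11. Tlr1 lay wholly above naïve at none of these times, and the share of all tested genes with such partial counts was not computed.

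Tlr1 and Tlr6 lie side by side on chr5 (64924679–64933563 and 64952031–64960097, both on the minus strand). Of the stretches of 75 bases, the read length, in their annotated transcripts, 10.3% of those of Tlr1 also occur in Tlr6 and 9.25% of those of Tlr6 in Tlr1, so part of their reads may have been divided between them. No other pair among the 10 shared such a stretch. Tlr2 (chr3:83836272-83841767) and Tlr4 (chr4:66827584-66930284) overlap no other annotated gene.

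Tlr7 and Tlr13, the leading receptors of naïve microglia, were not called at any time. Tlr7 stood at 16.2–64.9 RPKM at 4 h, at 31.8, 22.5, 34.0, 5.09 and 37.9 RPKM at 18 h, and at 24.0–43.9 RPKM at 2 weeks. All 5 retinas at 18 h were below the naïve median and 2 were below every naïve retina, EIU18h-2 only barely (22.47 against 22.50 RPKM). Tlr7 was thus not among the 1.3% of tested genes that lay wholly below naïve. The log2 difference from naïve was -0.96 ± 0.38 at 18 h (limma adjusted p = 0.162, 95% interval -1.74 to -0.18), and without EIU18h-4 it was -0.48. Tlr13 stood at 8.95–67.0 RPKM at 4 h, 20.7–25.8 RPKM at 18 h and 18.4–55.8 RPKM at 2 weeks. Its 18 h values were all below the naïve median of 36.3 RPKM, with a log2 difference of -0.44 (interval -1.23 to 0.35).

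At 4 h the differences of both genes from naïve had opposite signs in the 2 experiments. Tlr13 stood at 38.2, 8.95 and 10.4 RPKM in experiment 1 and at 67.0, 34.5 and 65.8 RPKM in experiment 2, and Tlr7 at 42.0, 16.2 and 21.8 RPKM and at 64.9, 35.5 and 61.8 RPKM. The log2 difference of Tlr13 from the naïve retinas of the same experiment was -1.12 and 0.78, and that of Tlr7 was -0.97 and 0.51. The difference between the experiments was 1.90 for Tlr13 (limma adjusted p = 0.568) and 1.48 for Tlr7 (adjusted p = 1), so neither passed, where 0.0988% of genes did. The low retinas of experiment 1, EIU4h-2 and EIU4h-3, had the fewest genes (8254 and 9331) and the lowest microglial marker sums (2206 and 3196 RPKM) of the 6 at 4 h, and the part of this was not tested.

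Tlr3, the double-stranded RNA sensor, was spread widely among naïve retinas. It ranged from 0.0216 to 12.7 RPKM in the 6 naïve retinas of experiment 1 and from 12.4 to 23.3 RPKM in the 4 of experiment 2. At 4 h the retinas stood at 1.16, 2.63, 6.60, 3.95, 3.70 and 3.51 RPKM, all below the naïve median of 9.70. The log2 difference was -0.65 with an interval of -1.98 to 0.67 (limma adjusted p = 0.626). In experiment 2 alone it was -1.95 (adjusted p = 0.000277) and in experiment 1 alone 0.16 (adjusted p = 0.968), and the difference between these did not pass (adjusted p = 1). At 18 h Tlr3 was 7.09, 10.5, 8.31, 0.135 and 26.7 RPKM, and the last, the single retina of experiment 2, exceeded every naïve retina. Tlr3 (chr8:45395665-45411080) overlaps the antisense gene Gm45542, and the library kit does not keep the strand, so reads of the pair cannot be told apart where they overlap.

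The naïve retinas of experiment 2 also stood higher than those of experiment 1 for Tlr4 (10.0 ± 1.66, n = 4, against 5.96 ± 3.73 RPKM, n = 6) and Tlr1 (11.6 ± 3.42 against 6.07 ± 4.37 RPKM). For Tlr2 they stood lower (16.9 ± 4.02 against 25.9 ± 13.6 RPKM). These differences were not tested. The naïve libraries of experiment 1 held 6552–11825 genes at an RPKM of at least 1 and those of experiment 2 held 11129–11429, and the part of this in the gaps was not tested. Without naïve-3 and naïve-4 the 4 remaining naïve retinas of experiment 1 stood at 7.48 ± 3.26 RPKM for Tlr4, 6.86 ± 5.10 for Tlr1, 23.4 ± 15.0 for Tlr2 and 6.65 ± 5.14 for Tlr3.

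Tlr5, Tlr8 and Tlr9 were scarce at all times. Tlr5 was listed at 0 in 4 of 10 naïve retinas, 5 of 6 at 4 h, all 5 at 18 h and 3 of 7 at 2 weeks, and its highest value was 1.09 RPKM. Tlr8 was listed at 0 in 10 of 28 retinas and reached at most 1.83 RPKM, and its log2 differences were -0.27, -0.03 and -0.02 at the 3 times, with limma adjusted p of 0.633, 0.977 and 1. Tlr9 was listed at 0 in 8 retinas, and its highest value, 2.10 RPKM, was in EIU4h-6. In a fit without the filter, Tlr5 and Tlr9 differed from naïve at 4 h by -0.19 and 0.14 (adjusted p = 0.669 and 0.902).

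Because Tlr2 rose so far, it came to make up most of the TLR mRNA. The summed RPKM of the 10 genes was 134 ± 21.1 in naïve retinas and 725 ± 404 at 4 h. It was 207 ± 93.5 at 18 h and 142 ± 40.2 at 2 weeks. The share of Tlr2 in that sum went from 16.6% ± 7.42 in naïve to 80.1% ± 7.29 at 4 h and 45.0% ± 9.12 at 18 h, and was 21.3% ± 7.99 at 2 weeks. The 9 other genes together summed to 112 ± 20.1 RPKM in naïve and 128 ± 54.6 RPKM at 4 h, so that nearly the whole increase in the sum was Tlr2.

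The sums by place of action are given as a description. The 5 cell surface receptors (Tlr1, Tlr2, Tlr4, Tlr5 and Tlr6) summed to 43.6 ± 16.3 RPKM in naïve retinas and, after LPS, to 642 ± 388 (4 h), 146 ± 78.7 (18 h) and 63.3 ± 28.3 (2 weeks). Tlr2 was 596 of the 642 RPKM at 4 h, when Tlr4, of the same group, fell. The 5 endosomal receptors summed to 90.4 ± 20.2, 82.2 ± 45.8, 61.7 ± 21.8 and 78.5 ± 16.2 RPKM in the same order. The endosomal sums of the groups overlapped at all times. Tlr7 and Tlr13 together went from being the largest share of the sum in naïve retinas (34.6% and 25.1%) to 6.13% and 5.26% at 4 h, although neither level was called as changed. Tlr4 made up 5.70% of the sum in naïve, 0.0964% at 4 h and 3.28% at 18 h.

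**Figure D4:**
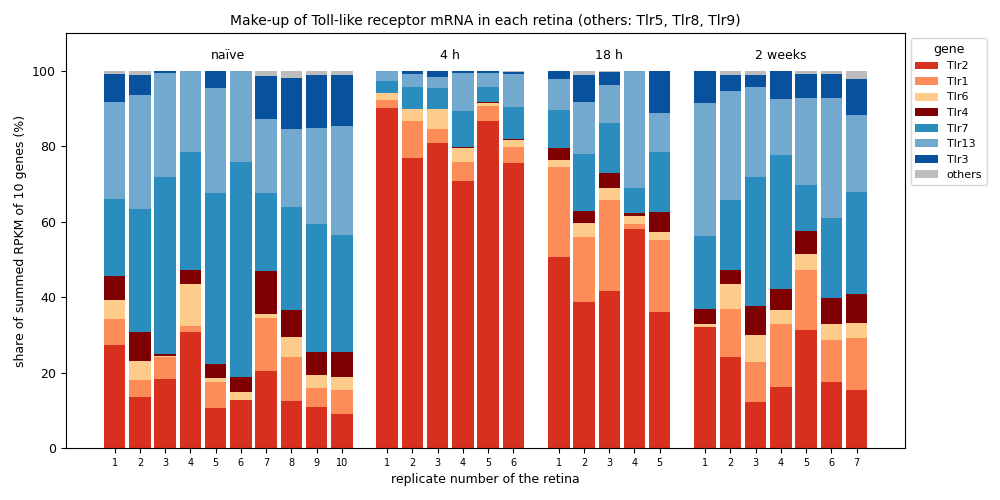
Share of each gene in the summed RPKM of the 10 TLR genes, as a stacked bar per retina, by group; Tlr5, Tlr8 and Tlr9 are joined as others. Tlr2 (bright red, at the base) takes 70.7% to 90.1% of the sum in the 6 retinas at 4 h and 9.15% to 30.7% in the 10 naïve retinas.

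Likeness between genes was measured as the root-mean-square distance of their standardised values over the 28 retinas, where 0 means the same pattern. For Tlr2 the 3 nearest genes were Tnf (0.301), Ehd1 (0.363) and Il12b (0.369), against a median distance of 1.41 to all tested genes. Tnf, an inflammatory cytokine, had mean levels of 1.11 RPKM in naïve, then 1519, 25.8 and 3.01 RPKM. The means of Tlr2 were 22.3, 596, 90.9 and 31.7 RPKM in the same order. For Tlr4, Snx5 (0.472) and Ppfia4 (0.516) were among the nearest, with a median of 1.22. Snx5, a sorting nexin of endosomes, had means of 81.8, 36.5, 65.9 and 95.2 RPKM. For Tlr6 the nearest were Smim3 (0.584), Pik3r6 (0.637) and Abcc1 (0.653), with a median of 1.32. Among the members, the nearest pairs were Tlr2 with Tlr6 (0.848) and Tlr3 with Tlr4 (0.851), and the farthest was Tlr2 with Tlr4 (1.74). All genes share the same libraries, so these distances are descriptions.

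The co-receptors and chaperones of the TLRs also moved in both directions at 4 h. Of 8 tested, 1 was called higher and 3 lower, where 3.68% and 4.39% of all tested genes were. Their median log2 difference was -0.74 against -0.11 for all genes. Cd14, which hands LPS to TLR4, rose from 367 ± 145 to 6671 ± 5786 RPKM (log2 difference 3.82, limma adjusted p = 6.42e-08). Ly96, which encodes the MD-2 subunit of the LPS receptor, fell from 61.2 ± 26.1 to 27.3 ± 26.5 RPKM (-1.33, adjusted p = 0.0241). Ly86, the partner of the TLR4 homologue CD180, and Hsp90b1, the chaperone gp96 that folds TLRs, fell by 1.29 and 1.05 on the log2 scale (adjusted p = 0.000933 and 0.00878). At 18 h the only call was Cd36, a scavenger receptor that acts with TLR2 and TLR6, which rose from 11.3 ± 7.92 to 61.4 ± 50.9 RPKM (2.51, adjusted p = 0.0375). Of all tested genes, 2.84% were called higher at that time.

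None of the 5 tested adaptors was called at 4 h or 18 h, where 8.08% and 4.69% of all tested genes were. Myd88 had the largest difference at 4 h (9.03 ± 10.5 to 44.8 ± 42.7 RPKM, log2 difference 2.29, limma adjusted p = 0.0564), and Ticam1, which encodes TRIF, differed by 1.00 (adjusted p = 0.0937). Of 16 kinases and ubiquitin ligases 3 were called higher at 4 h: Ikbke, a kinase upstream of interferon regulatory factors (1.52, adjusted p = 0.000245), Peli1 and Traf3. At 18 h Ikbke alone was called (1.20, adjusted p = 0.0111). Of all tested genes, 3.68% were called higher at 4 h and 2.84% at 18 h.

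Of 12 transcription factors that act below the receptors, 6 were called higher at 4 h and 0 lower (median log2 difference 1.81), where 3.68% of all tested genes were called higher. They were the NF-kappa B subunits Rel, Nfkb1, Nfkb2 and Relb, with Irf1 and Fos, and Rel rose from 4.19 ± 2.28 to 45.8 ± 28.0 RPKM (3.18, limma adjusted p = 1.21e-06). All 6 were called lower at 18 h than at 4 h, where 2.51% of all tested genes were. At 18 h against naïve the only call was Irf7, the interferon regulatory factor downstream of TLR7 and TLR9 (3.05, adjusted p = 0.00596). Of all tested genes, 2.84% were called higher at that time.

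Of 12 inhibitors, 6 were also called higher at 4 h (median 1.79), where 3.68% of all tested genes were. Nfkbia, which encodes the NF-kappa B inhibitor I kappa B alpha, rose from 53.6 ± 32.7 to 1445 ± 872 RPKM (log2 difference 4.82, limma adjusted p = 1.31e-08), and Tnfaip3, the deubiquitinase A20, from 4.69 ± 3.12 to 120 ± 29.8 RPKM (4.67, adjusted p = 6.56e-08). The others were Tnip1, Zc3h12a, Irak3 and Socs1. Irak3, the inactive kinase IRAK-M, was still called at 18 h (2.09, adjusted p = 0.0099), when Tnfaip3 differed from naïve by -0.74 (adjusted p = 0.525). Of all tested genes, 2.84% were called higher at 18 h.

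Among 9 genes of endosomal trafficking and processing, Slc15a3, an endosomal transporter of bacterial peptides, was called at 4 h, where it rose to 14.4 ± 5.12 RPKM from a naïve range of 0.599–6.60 RPKM (limma adjusted p = 4.31e-05), and none at 18 h. Of 12 other pattern recognition receptors, Ifih1, the RNA sensor MDA5 (2.99, adjusted p = 5.07e-07), and Nlrp3, the inflammasome sensor (1.79, adjusted p = 0.00568), were called higher at 4 h. At 18 h the calls were Zbp1, a nucleic acid sensor (3.07, adjusted p = 0.000471), and Clec4e, the C-type lectin Mincle (2.10, adjusted p = 0.0162). Beside the counts of both lists, the share of all tested genes called higher was 3.68% at 4 h and 2.84% at 18 h. Tlr12, another mouse TLR, was tested and not called (-0.46 at 4 h, adjusted p = 0.453), and Tlr11 did not pass the filter. At 2 weeks 0 genes of any of these lists were called.

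**Figure D5:**
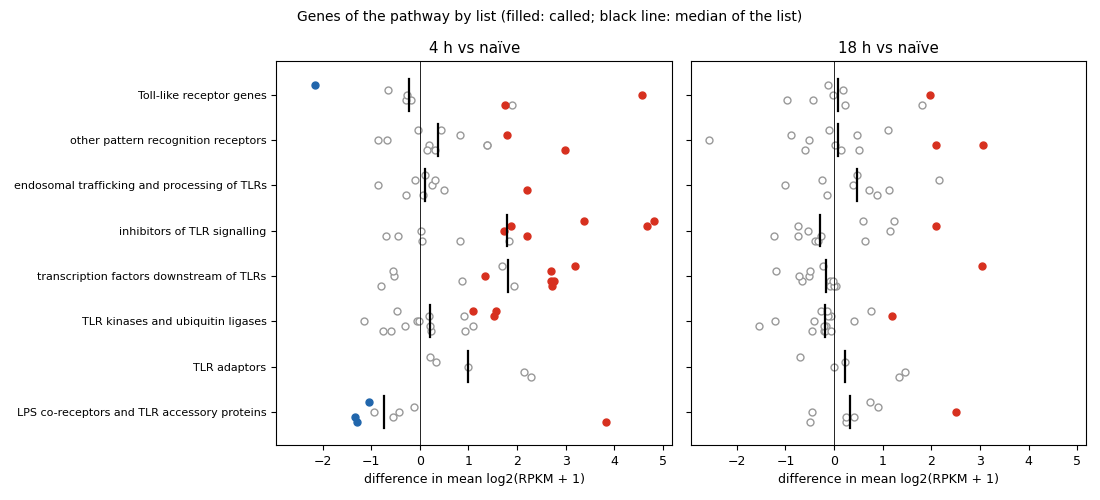
Difference in mean log2(RPKM + 1) from naïve at 4 h (left) and 18 h (right) for the tested genes of each list, 1 point per gene; red points were called higher, blue points lower, open points were not called, and the black line is the median of the list. At 4 h the medians of the transcription factors and inhibitors lie at 1.81 and 1.79, and at 18 h at -0.16 and -0.30.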

How the data were processed

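mRNA-Seq was performed on tdTomato-high DRAQ7-negative cells sorted from 28 single retinas, with SMART-Seq v4 cDNA and Nextera XT libraries, read as 75 bases. Per the labels and the study's methods, the authors used bcl2fastq 2.20, STAR 2.5.3a on mm10 and quantified Ensembl release 89 genes in Partek by expectation maximisation. The deposited values are RPKM, so counts were not available to the tests and read depth came from the alignment totals of each sample. RPKM leaves a few very abundant genes free to lower all others. The deposited tables of the authors' own comparisons (p-values, ratios and fold changes) were not used.

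RPKM were tested here as log2(RPKM + 1) with limma 3.58.1 (R 4.3.3, moderated with a mean-variance trend, all 28 retinas in 1 fit), for genes with an RPKM of 1 or more in 5 or more retinas, with Benjamini-Hochberg adjustment over 13164 genes. Calls needed an adjusted p not above 0.05 and a difference of at least 2-fold. All tests were 2-sided. The fit was tested on simulated data. The labels do not say which eyes shared a mouse, so p-values measure the spread between retinas, which may be partly technical or shared. Members and lists were chosen with earlier results of these data known. The genes named were the 10 members, up to 4 called examples per list with the smallest adjusted p (others named for completeness or, with Myd88 and Ticam1, after their values were seen), and the 3 nearest genes of each called member, of which 1 is not reported here. Gene positions came from GENCODE M21 and promoters from RefSeq, both on GRCm38. Alternatives were other pseudocounts, filters, scalings and covariates, each experiment alone, a replicate block and leaving out each retina.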

Additional observations from a re-analysis of the deposited data

Results flagged for a closer look

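In 6 of the 32 groups of values tested (8 members in 4 groups), the lowest retina stood apart from the rest of its group by Dixon's criterion, which chance meets in about 1 of 20 groups. Tlr1 was 14.5 RPKM in EIU4h-3, with the next retina at 27.0, and 0.121 RPKM in EIU2w-1, with the next at 9.15. Tlr4 was 0.697 RPKM in naïve-3, with the next at 4.19. Tlr6 was 1.00 RPKM in EIU2w-1, with the next at 4.76. Tlr7 was 5.09 RPKM in EIU18h-4, with the next at 22.5. Tlr13 was 20.7 RPKM in EIU18h-2, with the next at 24.4. EIU2w-1, naïve-3 and EIU18h-4 had 6644, 7088 and 6969 genes at an RPKM of at least 1, and hold 4 of the 6 values. The part of the number of detected genes in these values was not tested.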

How the results depend on the processing

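Of 15 alternatives other than leaving out a retina, 13 kept the number of members called at 4 h within 1.5 times the 3 of the report. Tlr2 at 4 h was called under all 14 refits and all 28 fits without 1 retina (4.06 to 5.07, and 4.30 to 4.82). Experiment 1 alone called 1 member at 4 h (Tlr2), 0 at 18 h and 0 between 18 h and 4 h. Experiment 2 alone called 5 at 4 h (Tlr1, Tlr2, Tlr3, Tlr4 and Tlr6). Its single 18 h retina differed from naïve by 1.94 for Tlr1 and 2.31 for Tlr2, and from 4 h by 2.55 for Tlr3. These fits hold fewer retinas. At 18 h 2 members were called with a pseudocount of 10 (Tlr1 and Tlr2), with every retina set to an equal summed RPKM (Tlr2 and Tlr7) and without the retinas of fewer than 8000 genes (Tlr1 and Tlr2). With a pseudocount of 10, which compresses low values, 1 was called between 18 h and 4 h, and Tlr4 and Tlr6 at 4 h fell short of a fold of 2 (-0.67 and 0.83). Over all genes, 416 were then called at 4 h and 338 at 18 h, against 1063 and 618 in the report, and 458 between 18 h and 4 h, against 714. Experiment 1 alone called 459, 232 and 202 genes, and experiment 2 alone 1558 at 4 h. Without the retinas of few genes 1241 were called between 18 h and 4 h. Equal summed RPKM moved the median over all genes from -0.11 to -0.28 at 4 h and from -0.08 to -0.26 at 18 h, and the calls at 4 h from 485 higher of 1063 to 409 of 1410. Leaving out 1 retina gave 3 to 4 members called at 4 h, 1 to 2 at 18 h, 0 at 2 weeks and 1 to 2 between 18 h and 4 h.

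Deviations from the group mean were correlated between retinas of the same replicate number. Against naïve they gave -0.257 to 0.698 in 6 pairs at 4 h, 2 of them over 0.1. At 18 h they gave -0.272 to 0.436 in 5 pairs, 3 over 0.1, and at 2 weeks -0.33 to 0.208 in 7 pairs, 2 over 0.1. Between 18 h and 4 h they gave -0.22 to 0.331 in 5 pairs, 2 over 0.1. Retinas of different numbers were not compared, so these values cannot decide whether the numbers pair the retinas. With a replicate block 2 members were called at 4 h, Tlr6 passing no longer (1.83, adjusted p = 0.0532), 1 at 18 h and none at 2 weeks.

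The values that changed sign were of differences not called. With a replicate block these were Tlr3 (0.20) and Tlr8 (0.054) at 4 h, Tlr4 (0.23) and Tlr8 (0.27) at 18 h and Tlr8 (0.21) at 2 weeks. In experiment 1 alone they were Tlr3 (0.16) at 4 h, Tlr8 (0.27) at 18 h, Tlr13 (-0.26) at 2 weeks and Tlr13 (0.60) between 18 h and 4 h. In experiment 2 alone they were Tlr7 (0.51) and Tlr13 (0.78) at 4 h, Tlr4 (0.31) and Tlr7 (0.054) at 18 h, Tlr3 (-0.45) at 2 weeks, and Tlr1 (0.48) and Tlr8 (-0.16) between 18 h and 4 h. With experiment as a covariate they were Tlr4 (0.056) and Tlr8 (0.064) at 18 h and Tlr1 (0.24) between 18 h and 4 h. Equal summed RPKM turned Tlr3 (-0.033) and Tlr6 (-0.032) at 18 h, and quantile normalisation Tlr8 (0.015) at 18 h and Tlr13 (-0.0093) at 2 weeks. Without the retinas of fewer than 8000 genes they were Tlr4 (0.068) at 18 h, Tlr3 (-0.14) and Tlr13 (-0.060) at 2 weeks and Tlr1 (0.82) between 18 h and 4 h. A pseudocount of 10 turned Tlr1 (0.18) between 18 h and 4 h, and one of 0.1 the difference of the 4 h change of Tlr4 between the experiments (1.37). The cause of these was not tested. Leaving out 1 retina turned Tlr1 (-0.48 to 0.82) and Tlr8 (-0.0086 to 0.36) between 18 h and 4 h, Tlr13 at 4 h (-0.42 to 0.13), Tlr3 (-0.27 to 0.88), Tlr4 (-0.37 to 0.37) and Tlr8 (-0.28 to 0.088) at 18 h, and Tlr13 (-0.087 to 0.17), Tlr4 (-0.0083 to 0.33) and Tlr8 (-0.19 to 0.066) at 2 weeks.

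RPKM carry no counting error, so the weight of single reads in Tlr5, Tlr8, Tlr9 and in Tlr4 at 4 h could not be modelled.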
